A study of Arabidopsis thaliana with 30 samples.

Results

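Shoot transcripts of Arabidopsis plants carrying the EAR fusion were compared with those of plants carrying the VP16 fusion. The comparison takes every library titled as an EAR pool 13 background, an EAR pool 15 background, a VP16 pool 2 background or a VP16 pool 5 background, with replicates A, B and C of each. This gives 6 EAR and 6 VP16 libraries, 12 of the 30 in the series, and the contrast is the mean of both EAR group means minus the mean of both VP16 group means. The series used RNA sequencing of shoots for a study of growth by genome interrogation, a method in which plants express artificial zinc-finger proteins joined to a regulatory domain. The labels give the genotype as EAR for pools 13 and 15, as VP16 for pools 2 and 5, and as Col-0, the common laboratory accession, for 3 further libraries that serve as a reference. No age, growth condition, hour of harvest, driving promoter, zinc-finger target or number of plants per pool was given in the labels.

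The EAR motif is a short repression motif of plant transcription factors that recruits co-repressors such as TOPLESS and, through them, histone deacetylases. VP16 is an activation domain from herpes simplex virus that recruits the general transcription machinery. A zinc-finger array brings the joined domain to the DNA sequences that it binds. Among the transcripts that differed most were genes of the circadian clock, in which the morning factors CCA1 and LHY repress evening genes such as PRR5, GI and ELF4 through a promoter sequence called the evening element.

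Of 19566 genes tested, 4095 differed between the fusions at an adjusted p under 0.05 by edgeR's quasi-likelihood test, 20.9% of those tested. In the EAR pools 2241 genes were higher (11.5%) and 1854 lower (9.48%). A change of at least 2-fold was reached by 533 of them, 329 higher and 204 lower, and the median size of a called change was 0.42 on the log2 scale. Without adjustment 6889 genes had a p under 0.05. DESeq2 on the same counts called 4321 (22.1%). Pools of the same fusion differed in few genes, with 8 between the EAR pools (0.0409%), 4 in each direction (0.0204%), and 1 between the VP16 pools (0.00511%). The count between the EAR pools was 339 in a fit of the 12 libraries alone and 53 by DESeq2. Single pools of different fusions were set against each other in the fit of all libraries. EAR pool 13 differed from VP16 pool 2 in 674 genes (3.44%), 262 higher (1.34%) and 412 lower (2.11%), and from VP16 pool 5 in 1643 (8.4%), 918 higher (4.69%) and 725 lower (3.71%). EAR pool 15 differed from VP16 pool 2 in 1161 genes (5.93%), 593 higher (3.03%) and 568 lower (2.9%), and from VP16 pool 5 in 2669 (13.6%), 1521 higher (7.77%) and 1148 lower (5.87%). The spread in this test is that between libraries of a group, taken over all 10 groups of the series. It is not that between the 2 pools of a fusion. A fit of the 12 pool libraries alone called 5471 of 19578 genes. With the 4 pool means as the samples, limma called 472 genes (2.41%), 185 higher (0.946%) and 287 lower (1.47%), and 456 of these were among the 4095. All EAR libraries lay above all VP16 libraries in 852 of the genes called higher and below them in 913 of those called lower, and over all genes tested in 940 (4.8%) and 1033 (5.28%).

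**Figure D1:**
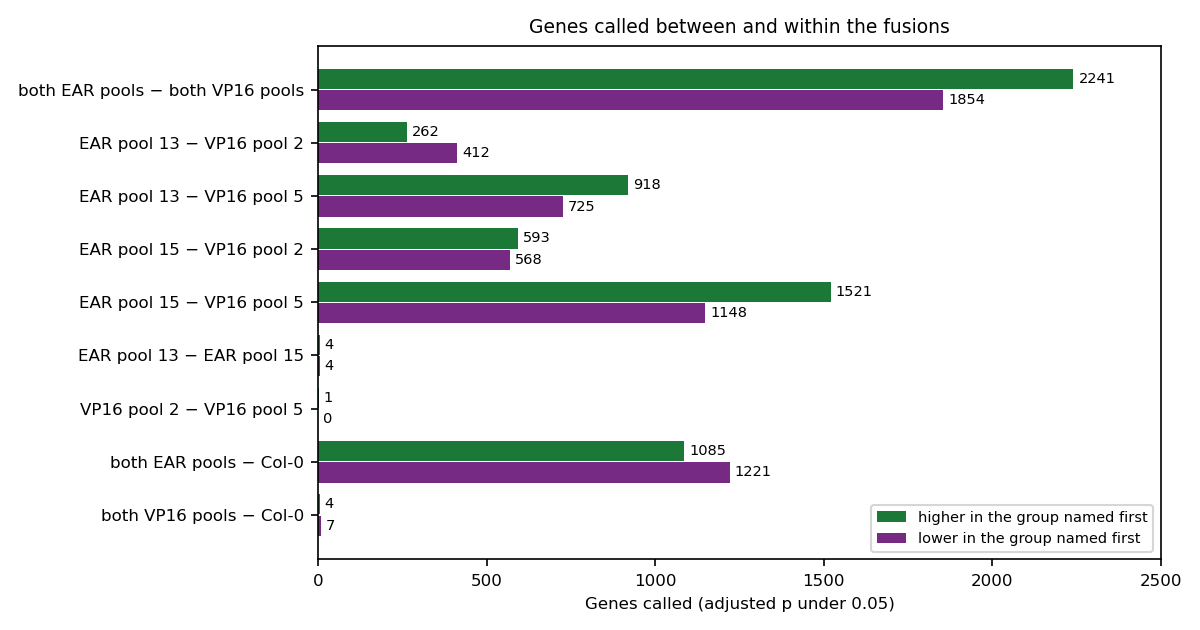
Bars give the number of genes called higher (green) or lower (purple) in the group named first, at an adjusted p under 0.05, with the number beside each bar. The contrast of both EAR pools with both VP16 pools called 2241 and 1854 genes, and the contrasts within a fusion called 8 and 1 in all.

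The libraries held 18339126 to 37499684 reads on genes in the EAR pools and 10637917 to 35316482 in the VP16 pools, with Col-0 at 10076308 to 40780331. The first principal component of the 12 libraries held 41.2% of the variance, with the EAR libraries from -38.7 to -12.3 and the VP16 libraries from 12 to 41.3. VP16 pool 2 C stood apart from A and B of its pool, with a chi-square of counts per degree of freedom of 37.9 and 24.6 to them, beside 9.94 between A and B. Without it 3747 genes were called (19%), 1881 higher (9.53%) and 1866 lower (9.45%). Nothing in the labels says that replicates came from separate plants. The p-values set a difference against the spread between libraries of a group, and part of that spread may be technical. Abundant shoot transcripts summed to 50490 to 56800 CPM (reads per gene scaled to library size) in the EAR libraries and 45010 to 61340 CPM in the VP16 libraries, among them RBCS1A (the small subunit of Rubisco) and LHCB1.3 (a light-harvesting protein). The 7 root markers summed to 27.4 to 31.2 CPM and 26.1 to 31.5 CPM, with the root-hair genes RHD6 and EXPA7 at 0 in all 12 libraries. CASP1 and COBL9 had at most 7 and 4 reads in any library. Nearly all of the sum came from SHR and SCR, the 2 root markers that were tested. Flower markers summed to 0.266 to 0.871 CPM and 0.229 to 1.19 CPM, and seed markers to at most 0.599 CPM and 0.172 CPM. Guard cell markers summed to 47.8 to 53.6 and 39.1 to 50.6 CPM, and FAMA, a guard cell transcription factor, was called higher in the EAR pools (log2 fold change 0.24, SE 0.064, adjusted p = 0.00962). Trichome markers summed to 11.3 to 15 and 11 to 16.1 CPM and vascular markers to 168 to 204 and 154 to 203 CPM, with overlapping ranges. Fewer cells of a type and less RNA per cell cannot be told apart in such bulk samples.

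An entry called VP16 stands among the genes of the count tables, with no sequence in the files. Its level was 6.14, 10.6 and 9.73 CPM in the VP16 pool 2 libraries A, B and C and 11.1, 10.6 and 16.9 CPM in those of pool 5. In the EAR libraries it stood at 4.64, 0.999 and 2.4 CPM in pool 13 and at 2.39, 1.25 and 3.01 CPM in pool 15. The fusions did not overlap, and the entry was lower in the EAR pools (log2 fold change -2.13, SE 0.26, adjusted p = 4.7e-06). It was not absent from them, with 24 to 181 reads per EAR library beside 115 to 491 in the VP16 libraries and 1, 0 and 2 in the Col-0 libraries. With the pool as the unit its adjusted p was 0.0187.

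The circadian clock of Arabidopsis is a set of transcription factors that repress one another in turn through the day. CCA1, LHY and the related REVEILLE factors act in the morning, the pseudo-response regulators follow, and the evening complex of ELF3, ELF4 and LUX closes the cycle. Of 12 evening factors tested 8 were lower in the EAR pools, with a median log2 fold change of -1.03 beside 0.0049 over all genes tested. Of 12 morning factors 5 were higher and 3 lower, with a median of 0.091. The labels give no hour of harvest, so a difference in sampling time and a difference between the fusions cannot be told apart for these genes, and the part of clock timing in the other results was not tested.

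FKF1, a blue-light receptor that marks repressors of flowering for destruction, had the largest fall among the evening factors. It lies at chr1:25508639-25510907, plus strand in TAIR10.1 and stood at 0.384, 1.13 and 3.38 CPM in the EAR libraries (lowest, median and highest) and 9.81, 12.6 and 23.9 CPM in the VP16 libraries. No EAR library reached a VP16 library (log2 fold change -3.70, SE 0.30, adjusted p = 3.62e-08), and within the EAR pools its mean was 0.539 CPM in pool 13 and 2.11 CPM in pool 15. PRR5, a repressor of CCA1 and LHY, stood at 5.46, 19.9 and 31.1 CPM in the EAR libraries and 58.9, 64.6 and 90.0 CPM in the VP16 libraries. Its groups did not overlap (log2 fold change -2.17, SE 0.28, adjusted p = 1.36e-05), but the EAR pools differed from each other, at 7.39 ± 2.98 and 30.3 ± 1.21 CPM (SD, n = 3), and with the pool as the unit the adjusted p was 0.121. PRR3, its relative, fell likewise from 9.62 to 15.2 CPM in the VP16 libraries to 1.1 to 3.22 CPM in the EAR libraries (log2 fold change -2.51, SE 0.23, adjusted p = 1.72e-07). ELF4, which links the parts of the evening complex, was at 0.4 to 0.967 CPM in the EAR libraries and 2.74 to 5.66 CPM in the VP16 libraries (log2 fold change -2.70, SE 0.28, adjusted p = 9.17e-07). GI, a scaffold that stabilises clock proteins, stood at 39.9, 49.9 and 54.8 CPM in the EAR libraries and 72.8, 105 and 122 CPM in the VP16 libraries, again without overlap (log2 fold change -1.09, SE 0.17, adjusted p = 0.000101). LUX, the DNA-binding part of the evening complex, was lower by the same test (log2 fold change -1.02, SE 0.18, adjusted p = 0.000335), as were its relative BOA (log2 fold change -1.03, SE 0.36, adjusted p = 0.0437) and TOC1, the founding pseudo-response regulator (log2 fold change -0.54, SE 0.14, adjusted p = 0.0102). BOA was at 0.0769 to 0.591 CPM in the EAR libraries and TOC1 at 17.9 to 35.1 CPM, and both overlapped the VP16 libraries. The number of evening factors called lower was 4 with the pool as the unit. Without the whole EAR pool 13 it was 6, with 2 called higher, and the median of the list was -0.49.

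Among the morning genes LHY had the largest rise. LHY, a MYB repressor of evening genes at chr1:33365-37871, minus strand, stood at 8.43, 14.8 and 18.8 CPM in the EAR libraries (lowest, median and highest) and 2.77, 3.72 and 6.48 CPM in the VP16 libraries. Every EAR library exceeded every VP16 library (log2 fold change 1.79, SE 0.19, adjusted p = 1e-06). CCA1, its partner, stood at 33.8, 55.2 and 71.5 CPM in the EAR libraries and 26.7, 33.6 and 36.8 CPM in the VP16 libraries, with overlap in 1 EAR library (log2 fold change 0.76, SE 0.17, adjusted p = 0.00269). The activators RVE8 and RVE4 of the REVEILLE group were higher at 0.87 (adjusted p = 0.000802) and 0.36 (adjusted p = 0.0142), and the coactivator LNK2 at 0.57 (adjusted p = 0.000144). RVE2 and RVE7 of the same family were lower, at -0.84 (adjusted p = 0.00072) and -0.51 (adjusted p = 0.00302), and PRR7, a daytime repressor, at -0.23 (adjusted p = 0.00171). Only 1 morning factor was called higher and 1 lower with the pool as the unit.

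**Figure D2:**
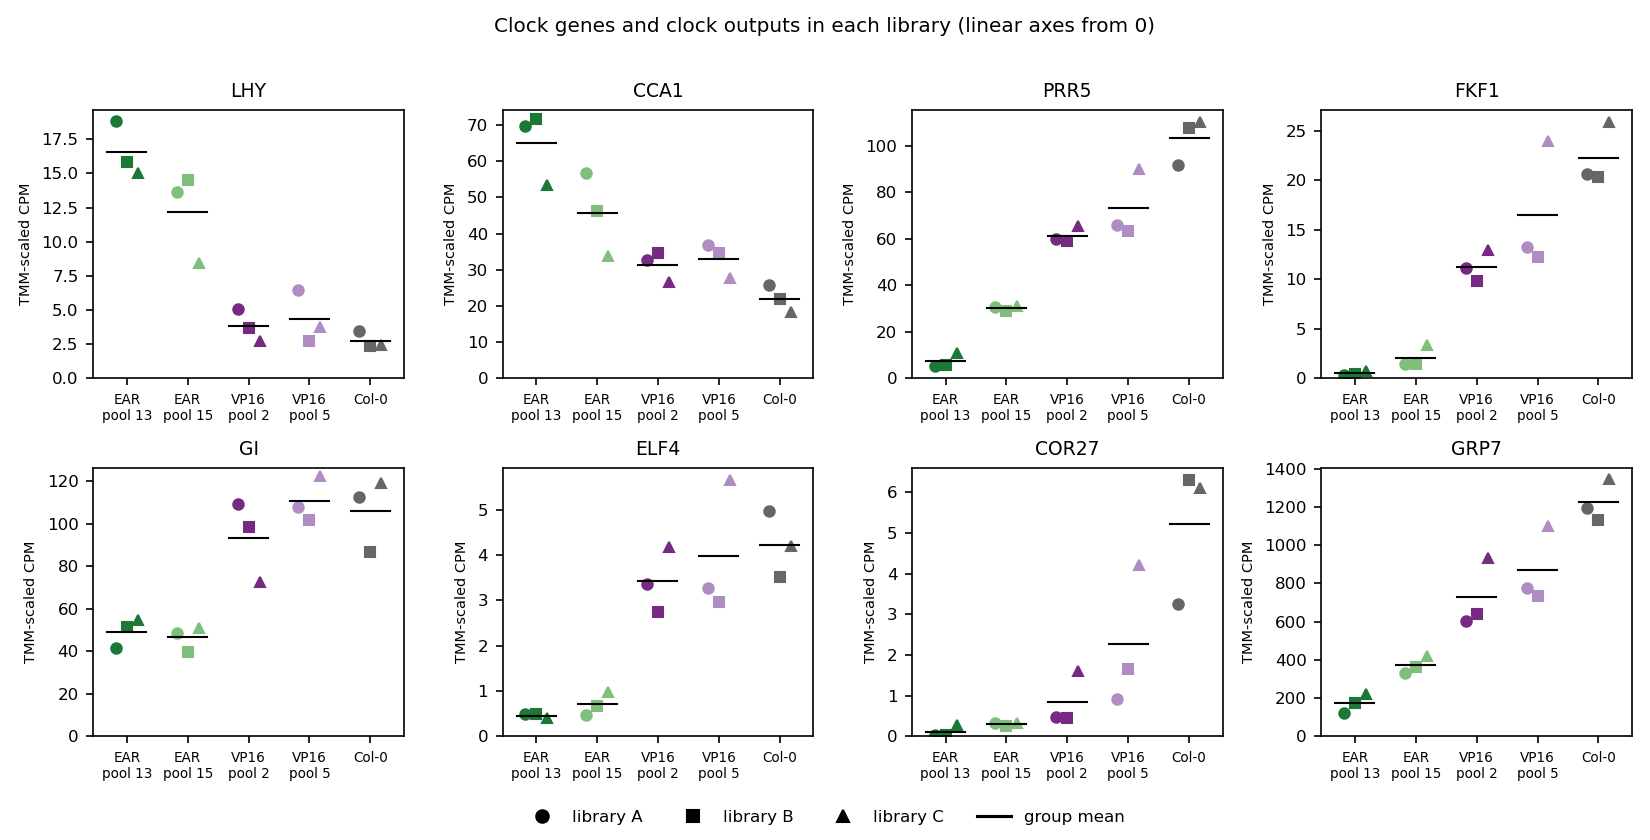
Each panel plots TMM-scaled CPM (vertical axis, linear from 0) of a clock gene or clock output in the 12 pool libraries and in Col-0, with the letter of the library as the symbol and the group mean as a line. LHY ran from 8.43 to 18.8 CPM in the EAR pools and from 2.77 to 6.48 CPM in the VP16 pools, and FKF1, PRR5, GI, ELF4, COR27 and GRP7 showed the reverse order.

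The promoters of the genes at the centre of this group are shown because the repeat of the evening element, and its absence from LHY, can be read in them. Each line holds the 300 bases just before the annotated gene start, from the TAIR10.1 sequence of RefSeq, 5′ to 3′ on the gene's strand, with the evening element AAAATATCT or its reverse complement AGATATTTT in capitals. The FKF1 window is chr1:25508339-25508638, plus strand, the PRR5 window chr5:8358547-8358846, minus strand, the LUX window chr3:17182742-17183041, plus strand, the GRP7 window chr2:9266558-9266857, minus strand and the LHY window chr1:37872-38171, minus strand.
FKF1: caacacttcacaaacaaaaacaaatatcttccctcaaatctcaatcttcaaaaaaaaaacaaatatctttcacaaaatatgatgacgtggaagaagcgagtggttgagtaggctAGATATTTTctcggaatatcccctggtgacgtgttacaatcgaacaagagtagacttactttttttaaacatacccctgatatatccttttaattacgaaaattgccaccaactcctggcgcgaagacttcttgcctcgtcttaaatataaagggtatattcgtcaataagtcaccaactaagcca
PRR5: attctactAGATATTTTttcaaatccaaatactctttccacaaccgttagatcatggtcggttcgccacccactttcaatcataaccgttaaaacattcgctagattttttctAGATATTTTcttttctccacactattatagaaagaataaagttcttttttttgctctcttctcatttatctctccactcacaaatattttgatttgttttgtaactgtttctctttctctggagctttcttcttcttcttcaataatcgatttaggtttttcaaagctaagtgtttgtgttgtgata
LUX: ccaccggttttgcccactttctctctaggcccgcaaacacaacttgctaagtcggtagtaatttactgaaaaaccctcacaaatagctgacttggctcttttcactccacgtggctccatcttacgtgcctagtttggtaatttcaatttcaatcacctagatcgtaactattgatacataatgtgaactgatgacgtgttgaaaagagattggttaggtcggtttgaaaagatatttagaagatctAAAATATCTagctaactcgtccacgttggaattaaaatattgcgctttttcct
GRP7: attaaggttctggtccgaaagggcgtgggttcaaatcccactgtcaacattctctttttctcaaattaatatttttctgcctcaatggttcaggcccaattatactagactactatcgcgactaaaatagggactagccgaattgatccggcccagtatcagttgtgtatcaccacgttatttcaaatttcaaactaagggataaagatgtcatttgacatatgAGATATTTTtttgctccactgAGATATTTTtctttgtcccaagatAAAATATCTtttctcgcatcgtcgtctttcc
LHY: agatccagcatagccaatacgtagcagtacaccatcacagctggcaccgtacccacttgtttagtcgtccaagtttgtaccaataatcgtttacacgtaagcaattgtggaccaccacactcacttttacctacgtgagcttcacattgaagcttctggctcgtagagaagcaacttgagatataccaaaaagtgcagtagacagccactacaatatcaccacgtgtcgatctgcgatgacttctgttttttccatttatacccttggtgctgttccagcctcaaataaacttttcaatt
The element, searched on both strands, was found 1 time in the FKF1 and LUX windows, 2 times in that of PRR5 and 3 times in that of GRP7. Over all genes tested 583 of 19437 windows held it (3%). Among genes called lower in the EAR pools 127 of 1853 windows held it (6.85%), and among genes called higher 49 of 2238 (2.19%). The CCA1 site AAAAATCT was in 8.26% of the former, 7.55% of the latter and 8.04% of all, and the G-box CACGTG in 9.12%, 9.12% and 7.9%. Of the 8 evening factors called lower, TOC1, PRR5, FKF1, LUX and BOA had the evening element in this window and PRR3, GI and ELF4 had none. A match of letters is a description of the window and says nothing of binding.

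Clock-controlled outputs fell with the evening factors in 4 of 8 cases. COR27, a cold-induced regulator that acts back on the clock, stood at 0.0256, 0.263 and 0.322 CPM in the EAR libraries (lowest, median and highest) and 0.451, 1.26 and 4.22 CPM in the VP16 libraries. Its groups did not overlap at this low level (log2 fold change -2.99, SE 0.52, adjusted p = 0.000324). AT4G33980, annotated as an uncharacterised protein, behaved alike at 0.0769 to 0.644 CPM and 0.902 to 5.97 CPM (log2 fold change -2.92, SE 0.45, adjusted p = 0.000101). GRP7, an RNA-binding protein that damps its own transcript in a daily rhythm, stood at 121, 275 and 422 CPM in the EAR libraries and 605, 755 and 1100.0 CPM in the VP16 libraries (log2 fold change -1.66, SE 0.24, adjusted p = 4.01e-05). GRP8, its close relative, was lower in all EAR libraries too (log2 fold change -0.86, SE 0.10, adjusted p = 3.48e-06). CDF2, a repressor of flowering that FKF1 helps to remove, was the output called higher, at 0.83 (adjusted p = 0.000623). For COR27 and GRP7 the adjusted p with the pool as the unit was 0.0918 and 0.0748, and 2 outputs were then called lower. AT1G07050, a gene of the CCT motif family at chr1:2163575-2165261, minus strand, had the largest fall of all genes that met the rule for named genes. It stood at 0.864, 1.28 and 2.47 CPM in the EAR libraries and 16.7, 18.9 and 25.4 CPM in the VP16 libraries (log2 fold change -3.88, SE 0.25, adjusted p = 1.02e-09), and its window held no evening element.

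Starch made by day is broken down at night by phosphorylating enzymes, amylases and transporters. Of 16 starch genes 12 were lower in the EAR pools and 2 higher, with a median of -0.41, and 10 were called lower with the pool as the unit. PWD, which phosphorylates starch already marked by GWD1, stood at 91.1, 103 and 124 CPM in the EAR libraries and 176, 217 and 249 CPM in the VP16 libraries. The fusions did not overlap (log2 fold change -1.05, SE 0.10, adjusted p = 6.78e-07). GWD1 itself, the first kinase of the pathway, was at 320.3 to 391 CPM against 505 to 752 CPM (log2 fold change -0.93, SE 0.13, adjusted p = 2.41e-05). The phosphorylase PHS2 and the debranching enzyme ISA3 were lower at -0.87 (adjusted p = 0.00162) and -0.80 (adjusted p = 0.000565), the disproportionating enzyme DPE1 at -0.73 (adjusted p = 1.35e-06), the beta-amylase BAM3 at -0.63 (adjusted p = 0.00494) and the alpha-amylase AMY3 at -0.49 (adjusted p = 0.000257). The maltose exporter MEX1 had a smaller difference of -0.23 (adjusted p = 0.0131). Higher were GBSS1, the granule-bound starch synthase that makes amylose, at 0.75 (adjusted p = 0.00858), and BAM1, a stress-responsive beta-amylase, at 0.42 (adjusted p = 0.00164). Against Col-0 the list had a median of -0.34 in the EAR pools and 0.07 in the VP16 pools.

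Cold-regulated genes were lower in 6 of 14 cases, with a median of -0.50. The number lower was 3 with the pool as the unit, and without VP16 pool 5 the median was -0.20. COR15B, a chloroplast protein that protects membranes in the cold, stood at 28.2, 31.3 and 37.5 CPM in the EAR libraries and 61, 80.0 and 149 CPM in the VP16 libraries, without overlap (log2 fold change -1.46, SE 0.20, adjusted p = 2.01e-05). The CBF factors switch such genes on, and CBF1 and CBF3 were lower at -1.77 (adjusted p = 0.000416) and -1.57 (adjusted p = 0.00012), from medians of 1.27 and 2.7 CPM in the VP16 libraries. The membrane protein gene COR413-PM1 was lower at -0.68 (adjusted p = 2.08e-05) and KIN2 at -0.57 (adjusted p = 0.00972).

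Transcription factors that respond within minutes to touch, wounding or cold formed a further group. Of 23 such genes tested 15 were lower in the EAR pools and 1 higher, with a median of -0.89, and 6 were called lower with the pool as the unit. ERF5, an ethylene response factor, stood at 3.59, 4.26 and 5.79 CPM in the EAR libraries (lowest, median and highest) and 13.2, 20.4 and 28.4 CPM in the VP16 libraries. No EAR library reached a VP16 library (log2 fold change -2.16, SE 0.29, adjusted p = 1.97e-05). ERF6, its nearest relative, stood at 4.23, 4.78 and 6.37 CPM in the EAR libraries and 14.6, 22.5 and 25.2 CPM in the VP16 libraries (log2 fold change -2.04, SE 0.24, adjusted p = 3.98e-06). The zinc-finger repressors ZAT11 and ZAT6 were at 0.415 to 1.43 and 1.35 to 3.65 CPM in the EAR libraries. In the VP16 libraries they were at 2.75 to 7.64 and 7.72 to 21.5 CPM. Their log2 fold changes were -2.61 (SE 0.35, adjusted p = 1.63e-05) and -2.48 (SE 0.35, adjusted p = 3.11e-05). ORA47, an activator of jasmonate synthesis, was lower by the same test (log2 fold change -2.75, SE 0.32, adjusted p = 4.04e-06) without overlap of the fusions. ERF13 was lower at -2.20 (adjusted p = 4.72e-05), ERF104 at -1.83 (adjusted p = 0.000101), ERF1A at -1.39 (adjusted p = 1.95e-06) and the salt-tolerance factor ZAT10 at -1.59 (adjusted p = 0.00042). The exception was CML37, a calcium-binding protein, which was higher at 1.15 (adjusted p = 0.0402) and overlapped between the fusions.

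These rapid-response genes varied between the Col-0 libraries as well. ERF5 was at 14.3, 5.78 and 2.89 CPM in Col-0 A, B and C, and ZAT11 at 2.35, 0.619 and 0.683 CPM. Against Col-0 the log2 fold change of ERF5 was -0.86 in the EAR pools (adjusted p = 0.114) and 1.3 in the VP16 pools (adjusted p = 0.185). ZAT11 gave -0.82 in the EAR pools (adjusted p = 0.267) and 1.79 in the VP16 pools (adjusted p = 0.114). Neither gene passed the test against Col-0 in either fusion, whereas the difference between the fusions passed.

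Of 26 jasmonate genes 4 were lower and 1 higher, with a median of -0.24. The share called was 19.2%, near the 20.9% of all genes tested. LOX4, a lipoxygenase at the start of jasmonate synthesis, was lower (log2 fold change -1.07, SE 0.18, adjusted p = 0.000335), with 24.4 CPM in the highest EAR library and 27 in the lowest VP16 library. The repressor genes JAZ1 and JAZ9 were lower at -0.87 (adjusted p = 0.000237) and -0.52 (adjusted p = 0.00677) and MYC2, the main factor of the response, at -0.82 (adjusted p = 0.00218). JMT, which makes methyl jasmonate, was higher at 0.60 (adjusted p = 0.00221). Of 13 WRKY factors of defence 6 were lower and 2 higher. WRKY33, an activator of camalexin synthesis, stood at 44.7, 62.5 and 73.6 CPM in the EAR libraries and 111, 161 and 224 CPM in the VP16 libraries (log2 fold change -1.42, SE 0.31, adjusted p = 0.00258). WRKY70, a factor between the salicylate and jasmonate routes, and WRKY40, a repressor, were lower at -1.10 (adjusted p = 0.00171) and -1.05 (adjusted p = 0.00405). WRKY48 and WRKY60 were higher at 1.32 (adjusted p = 0.00138) and 0.95 (adjusted p = 0.00267). The count of WRKY genes called lower fell from 6 to 3 without EAR pool 13 A, EAR pool 15 B, EAR pool 15 C or VP16 pool 5 B. It was 2 with the pool as the unit or without the whole EAR pool 15, and 1 without the whole VP16 pool 2. In that last fit the median of the list was 0.26, beside -0.33 with all pools.

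**Figure D3:**
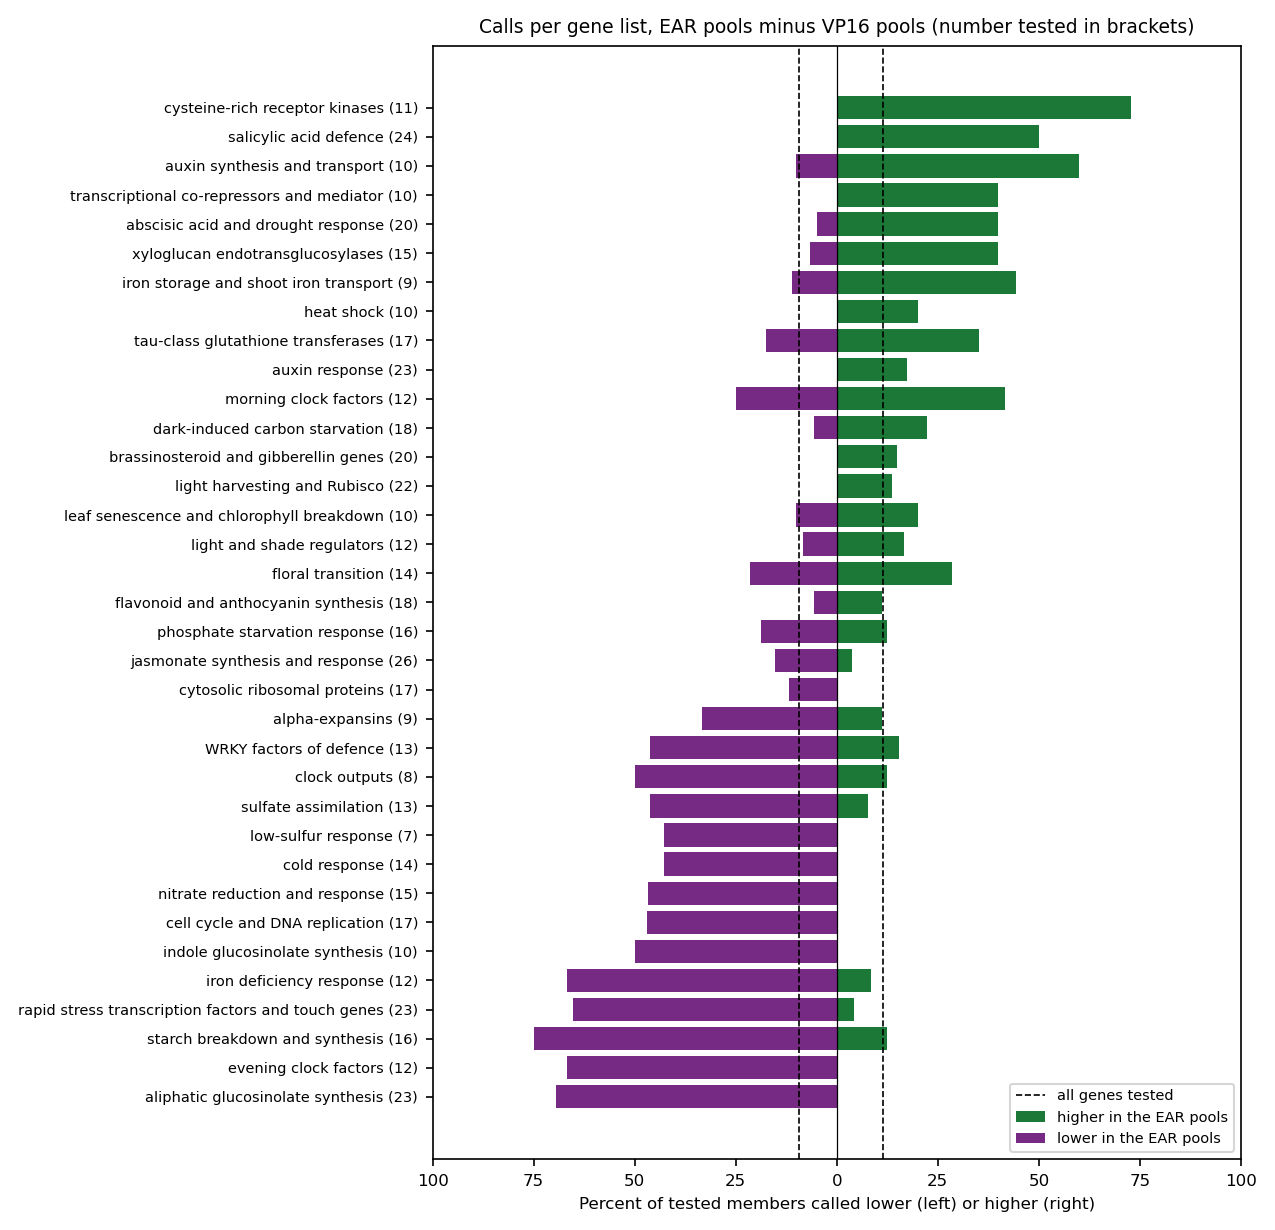
For each of 35 gene lists, bars give the percent of tested members called higher (green, to the right) or lower (purple, to the left) in the EAR pools, and dashed lines mark the shares over all genes tested, 11.5% and 9.48%. Starch, evening clock, rapid stress and aliphatic glucosinolate lists extend to the left, and cysteine-rich receptor kinases, auxin synthesis and salicylic acid defence extend to the right.

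Glucosinolates are sulfur-rich defence compounds of the cabbage family, built from methionine in the aliphatic branch and from tryptophan in the indole branch. Of 23 aliphatic genes 16 were lower in the EAR pools, with a median of -0.68. CYP79F1, which commits chain-elongated methionine to the pathway, stood at 105, 148 and 207 CPM in the EAR libraries (lowest, median and highest) and 218, 279 and 359 CPM in the VP16 libraries. The fusions did not overlap, but the error was wide (log2 fold change -0.88, SE 0.29, adjusted p = 0.0314). CYP79F2, its near-identical neighbour with which reads may be shared, was lower at -1.03 (adjusted p = 0.0254). The sulfotransferase SOT17 and the oxygenase FMOGS-OX1 near the end of the pathway were lower at -1.06 (adjusted p = 0.0281) and -1.03 (adjusted p = 0.0224), and the MYB76 regulator at -1.03 (adjusted p = 0.0388). BCAT4, the first enzyme of chain elongation, was lower at -0.73 (adjusted p = 0.0245) and BASS5, which carries its product into plastids, at -0.87 (adjusted p = 0.0102). These calls were fragile. The number lower fell to 3 without VP16 pool 5 A, 4 without EAR pool 15 B, 5 without EAR pool 13 C, 6 without EAR pool 13 B or VP16 pool 2 A, 8 without EAR pool 15 C and 10 without VP16 pool 2 B. With the pool as the unit 7 were called lower, and without the whole EAR pool 15 edgeR called 0, with 11 lower at an unadjusted p under 0.05.

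In the indole branch 5 of 10 genes were lower, with a median of -0.48. CYP79B2 and CYP79B3, which convert tryptophan in the first step, were lower at -1.16 (adjusted p = 0.0182) and -0.90 (adjusted p = 0.00395). The count was 3 without EAR pool 13 B, EAR pool 13 C, EAR pool 15 B, EAR pool 15 C or VP16 pool 2 A, and 2 without VP16 pool 5 A. Without the whole EAR pool 15 it was 1, and with the pool as the unit limma called 0, with 6 lower at an unadjusted p under 0.05.

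Sulfate is activated and reduced before it can be built into such compounds. Of 13 genes of sulfate assimilation 6 were lower and 1 higher, with a median of -0.12, and with the pool as the unit limma also called 6 lower. Without the whole EAR pool 13 edgeR called 4 lower and 3 higher, and the median was then 0.032. APR3, an adenylylsulfate reductase and control point of the pathway, stood at 40.9, 80.6 and 136 CPM in the EAR libraries and 163, 247 and 294 CPM in the VP16 libraries (log2 fold change -1.47, SE 0.39, adjusted p = 0.0103). Its relatives APR1 and APR2 were lower at -1.29 (adjusted p = 0.0175) and -0.96 (adjusted p = 0.0483), and the kinases APK2 and APK1, which make the sulfate donor for glucosinolates, at -0.97 (adjusted p = 0.00933) and -0.80 (adjusted p = 0.0122). APS3, which activates sulfate, was lower at -0.72 (adjusted p = 0.00277) and its relative APS4 higher at 0.26 (adjusted p = 0.0403). In Col-0 the APR3 libraries A, B and C were at 184, 76 and 54.5 CPM, a wider range than in the EAR libraries. Of 7 genes induced by low sulfur 3 were lower, with a median of -1.15. LSU3 and LSU2, small proteins of that response, were lower at -1.84 (adjusted p = 0.00858) and -1.63 (adjusted p = 0.0276), and AT1G04770, annotated as a tetratricopeptide repeat protein, at -1.80 (adjusted p = 0.00264). Without the whole EAR pool 15 the count of sulfate genes called lower was 1. For the low-sulfur genes it was then 0 by edgeR, with 5 lower at an unadjusted p under 0.05.

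Salicylic acid is the hormone of defence against pathogens that feed on living tissue, and it raises pathogenesis-related proteins and receptor kinases. Of 24 genes of this response 12 were higher in the EAR pools, with a median of 0.66. Of 11 cysteine-rich receptor kinases 8 were higher, with a median of 1.24. PR2, a glucanase that attacks fungal walls, stood at 107, 152 and 469.6 CPM in the EAR libraries (lowest, median and highest) and 23.57, 52.3 and 215 CPM in the VP16 libraries. The fusions overlapped (log2 fold change 1.87, SE 0.48, adjusted p = 0.00861), with VP16 pool 2 A at 215 CPM and the VP16 pool 5 libraries at 23.57, 27.6 and 36.2 CPM. WAK1, a wall-associated kinase, stood at 119, 181 and 243 CPM in the EAR libraries and 35.1, 51.5 and 123 CPM in the VP16 libraries, and VP16 pool 2 A was its highest VP16 library (log2 fold change 1.55, SE 0.27, adjusted p = 0.000319). PR5, a thaumatin-like protein, was higher at 1.79 (adjusted p = 0.00553), ALD1, which makes the mobile signal pipecolate, at 1.63 (adjusted p = 0.0159), and PR1, the usual marker of the response, at 1.16 (adjusted p = 0.0479). DMR6, an enzyme that inactivates salicylate, was higher at 1.43 (adjusted p = 0.00122), and ICS1, which makes most of the salicylate, at 0.52 (adjusted p = 0.0203). EDS1 and NPR1, regulators of the response, were higher at 0.63 (adjusted p = 0.00219) and 0.34 (adjusted p = 0.0411).

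Among the receptor kinases VP16 pool 2 A was again high. CRK6 stood at 17.81, 30.5 and 64.1 CPM in the EAR libraries and 5.19, 8.27 and 29.7 CPM in the VP16 libraries, with 29.7 CPM in VP16 pool 2 A (log2 fold change 1.72, SE 0.40, adjusted p = 0.00397). CRK37 and CRK36 were higher at 1.76 (adjusted p = 0.00375) and 1.41 (adjusted p = 0.00327), and CRK7 at 1.44 (adjusted p = 0.0107). Several of these kinases lie side by side as related copies, so their single levels are uncertain. SAG13, a dehydrogenase gene of senescence and defence, was higher with them at 1.65 (adjusted p = 0.0104). These calls depended on VP16 pool 5. Without that pool 1 of the salicylic acid genes and 0 of the kinases were called higher by edgeR, with 5 kinases at an unadjusted p under 0.05. With the pool as the unit limma called 0 in either list, with 12 salicylic acid genes and 9 kinases higher at an unadjusted p under 0.05. The salicylic acid count was 6 without EAR pool 13 C and 7 without EAR pool 15 B, VP16 pool 2 B or VP16 pool 2 C.

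**Figure D4:**
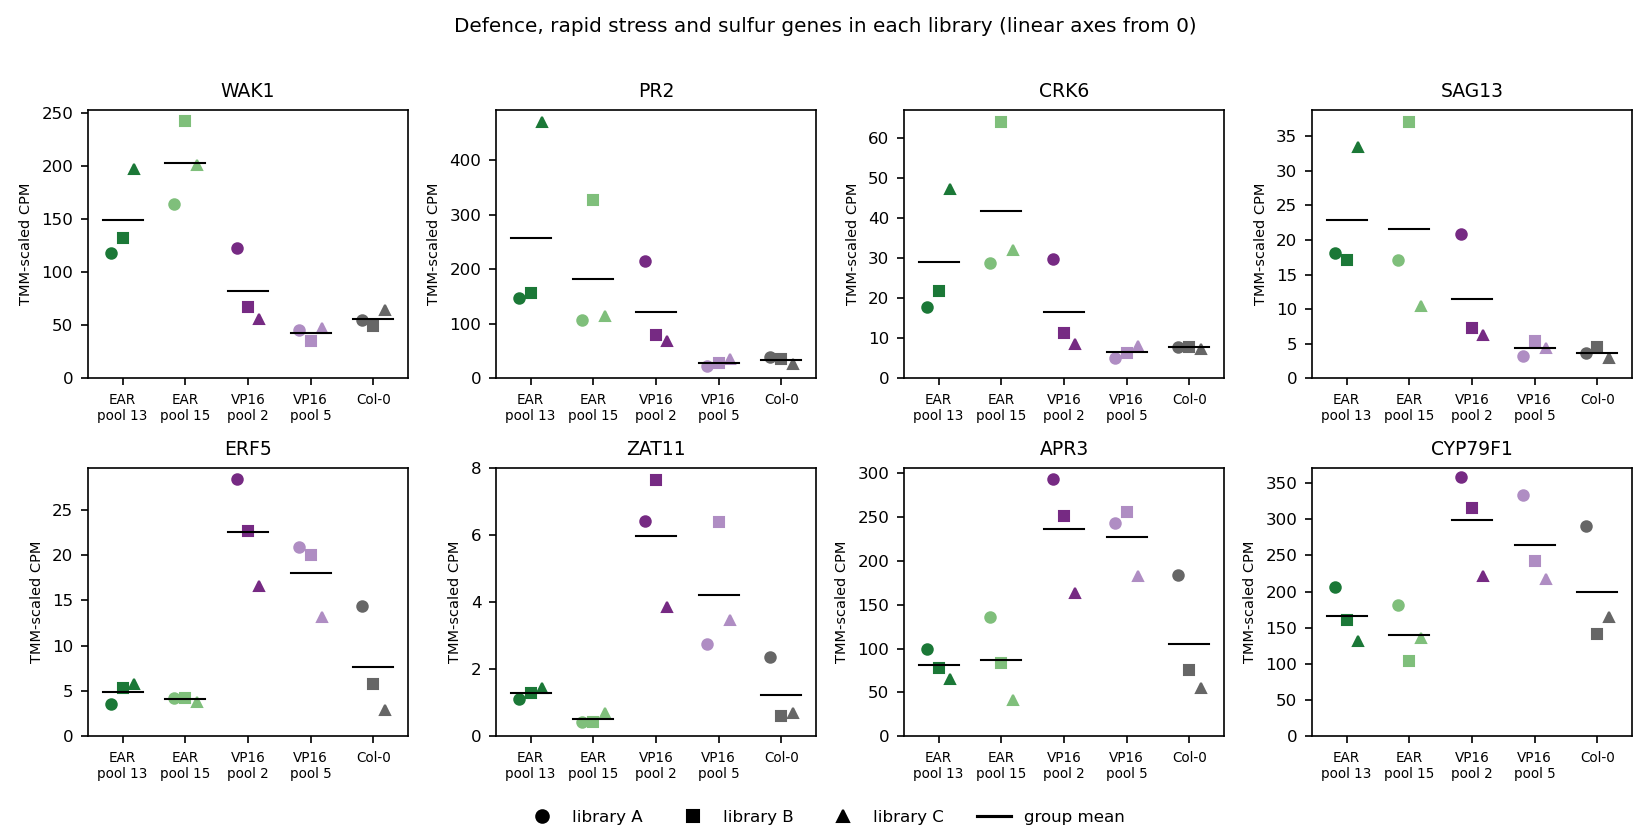
Each panel plots TMM-scaled CPM (vertical axis, linear from 0) of 1 gene in the 12 pool libraries and in Col-0, with the letter of the library as the symbol and the group mean as a line. WAK1, PR2, CRK6 and SAG13 had their highest pool means in EAR pools, with VP16 pool 2 A above the other VP16 libraries, and ERF5, ZAT11, APR3 and CYP79F1 had theirs in VP16 pools.

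Abscisic acid is the drought hormone. Of 20 genes of its synthesis and response 8 were higher and 1 lower, with a median of 0.43. HAI1, a phosphatase that damps the signal, stood at 1.54 to 4.16 CPM in the EAR libraries and 0.277 to 1.27 CPM in the VP16 libraries (log2 fold change 1.55, SE 0.40, adjusted p = 0.00772). AFP1, a repressor of ABI5, and the caleosin RD20 were higher at 1.16 (adjusted p = 0.0136) and 1.02 (adjusted p = 0.00212), and the bZIP factor ABF3 at 0.47 (adjusted p = 3.73e-05). The receptor gene PYL4 was higher at 0.83 (adjusted p = 0.00349), although with the pool as the unit its adjusted p was 0.22 and 2 genes of the list were called higher. The member called lower was NCED3, the rate-limiting enzyme of abscisic acid synthesis, which stood at 2.29, 2.94 and 3.93 CPM in the EAR libraries and 5.57, 6.25 and 8.36 CPM in the VP16 libraries, without overlap (log2 fold change -1.11, SE 0.13, adjusted p = 4.18e-06).

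Iron deficiency sets off a set of bHLH factors and small peptides. Of 12 such genes 8 were lower in the EAR pools and 1 higher, with a median of -1.15. BHLH100, a bHLH factor of the response, ranged from 0 to 0.208 CPM in the EAR libraries and from 0.438 to 1.07 CPM in the VP16 libraries (log2 fold change -2.36, SE 0.44, adjusted p = 0.000704). AT1G47400 and AT2G30766, annotated as uncharacterised proteins, were lower without overlap at -1.66 (adjusted p = 4.87e-05) and -1.98 (adjusted p = 0.000316), though AT1G47400 has a close copy beside it that may share its reads. PYE and BTS, a repressor of the response and a sensor of iron, were lower at -0.69 (adjusted p = 0.00244) and -0.39 (adjusted p = 0.000876), and ILR3, the partner of PYE, was higher at 0.17 (adjusted p = 0.0208). Of 9 genes of iron storage and shoot iron transport 4 were higher and 1 lower. Called higher by limma with the pool as the unit were 0 of them, with 6 at an unadjusted p under 0.05, and without VP16 pool 5 edgeR called 2. The transporter YSL3, which moves iron out of veins, was at 67.3, 81.2 and 100.1 CPM in the EAR libraries and 34.5, 44.6 and 51.5 CPM in the VP16 libraries (log2 fold change 0.89, SE 0.17, adjusted p = 0.00101). The vacuolar iron transporter relatives VTL1 and VTL2 were higher at 0.91 (adjusted p = 0.00529) and 0.76 (adjusted p = 0.0029), the ferritin FER4 at 0.53 (adjusted p = 9.8e-05), and the chloroplast ferric reductase FRO7 was lower at -0.37 (adjusted p = 0.0393). Most bHLH factors of this list were under 1 CPM, so their levels rest on few reads. Of the deficiency genes 3 were called lower with the pool as the unit.

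Nitrate genes were lower in 7 of 15 cases, with a median of -0.25, and in 2 with the pool as the unit. BT1, a nitrate-induced regulator, ran from 19.1 to 93.1 CPM in the EAR libraries and from 71.2 to 117 CPM in the VP16 libraries (log2 fold change -1.15, SE 0.29, adjusted p = 0.0075). AT1G25550, annotated as a myb-like factor, was lower without overlap (log2 fold change -0.91, SE 0.16, adjusted p = 0.000517). LBD37, a repressor of nitrogen responses, was lower at -0.55 (adjusted p = 0.00106). UPM1, which makes the siroheme of nitrite reductase, was lower at -0.57 (adjusted p = 2.52e-05), but its mean was 93.2 ± 6.57 CPM in EAR pool 13 and 168 ± 20.1 CPM in EAR pool 15 (SD, n = 3), beside 179 and 192 CPM in the VP16 pools. Of 16 phosphate starvation genes 3 were lower and 2 higher, a share called of 31.25% beside 20.9% of all genes tested. SPX1, a phosphate sensor, and MGD3, which makes galactolipids under starvation, were lower at -1.43 (adjusted p = 0.03) and -1.48 (adjusted p = 0.0324). Leaving out any of EAR pool 13 B or C, EAR pool 15 B or C, VP16 pool 2 A or VP16 pool 5 A reduced the phosphate count called lower to 0 by edgeR, with 3 or 4 at an unadjusted p under 0.05, and without VP16 pool 5 B it was 1.

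Auxin drives the growth of shoots. Of 10 genes of its synthesis and transport 6 were higher in the EAR pools and 1 lower, with a median of 0.32, and 3 were called higher with the pool as the unit. YUC9, a flavin monooxygenase that makes auxin, stood at 1.81, 2.44 and 4.29 CPM in the EAR libraries and 0, 0.436 and 1.26 CPM in the VP16 libraries. The fusions did not overlap (log2 fold change 2.36, SE 0.52, adjusted p = 0.00277). Its relatives YUC8 and YUC2 were higher at 1.16 (adjusted p = 0.0185) and 0.80 (adjusted p = 0.000858). PIN3, an efflux carrier of lateral transport, stood at 86.5, 89.7 and 106 CPM in the EAR libraries and 51.2, 61.6 and 67 CPM in the VP16 libraries (log2 fold change 0.58, SE 0.10, adjusted p = 0.000404), PIN4 and the importer AUX1 were higher at 0.29 (adjusted p = 0.0137) and 0.36 (adjusted p = 0.0237), and PIN7 was lower at -0.44 (adjusted p = 0.00845). Of 23 auxin response genes 4 were higher, and the share called, 17.39%, was below the 20.9% of all genes tested. GH3.5 and GH3.3, which tie auxin to amino acids, were higher at 0.80 (adjusted p = 0.0145) and 0.79 (adjusted p = 0.0107), and the repressors IAA3 and IAA13 at 0.35 (adjusted p = 0.0258) and 0.21 (adjusted p = 0.0175). The count fell to 2 without EAR pool 15 C or VP16 pool 2 B. Without the whole EAR pool 15 or VP16 pool 5 edgeR called 0, with 1 and 3 higher at an unadjusted p under 0.05, and with the pool as the unit limma called 0, with 5.

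Wall-loosening genes differed in both directions. Of 9 alpha-expansins 3 were lower and 1 higher. EXPA11 stood at 9.73, 12.1 and 18.1 CPM in the EAR libraries and 26.4, 26.6 and 28.1 CPM in the VP16 libraries, without overlap (log2 fold change -1.07, SE 0.12, adjusted p = 2.72e-06). EXPA8 and EXPA3 were lower at -1.11 (adjusted p = 5.46e-05) and -0.64 (adjusted p = 0.000936), and EXPA16 was higher at 1.45 (adjusted p = 0.00139). Of 15 xyloglucan endotransglucosylases, which cut and rejoin wall polymers, 6 were higher and 1 lower. XTH24 stood at 49.5, 63.1 and 73.7 CPM in the EAR libraries and 23, 30.8 and 50.8 CPM in the VP16 libraries (log2 fold change 0.92, SE 0.15, adjusted p = 0.000165), XTH25 and XTH33 were higher at 2.28 (adjusted p = 0.00308) and 1.49 (adjusted p = 0.00512), and XTH8 was lower at -0.58 (adjusted p = 0.00171). With the pool as the unit 0 of these enzymes were called higher by limma, with 5 at an unadjusted p under 0.05, and edgeR called 1 without VP16 pool 5. In the brassinosteroid and gibberellin list 3 of 20 were higher and 0 lower. The share called, 15%, was below the 20.9% of all genes tested. The 3 were CYP85A2, which makes the active brassinosteroid (log2 fold change 0.82, SE 0.15, adjusted p = 0.000507), the factor TCP1 at 0.72 (adjusted p = 0.00438) and the growth repressor RGA at 0.22 (adjusted p = 0.0183).

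Of 14 regulators of the floral transition 4 were higher and 3 lower. MAF5 and MAF4, neighbouring MADS-box repressors of flowering related to FLC, were higher at 1.93 (adjusted p = 2.97e-06) and 1.2 (adjusted p = 0.000257). MAF5 stood at 2.47, 4.06 and 5.69 CPM in the EAR libraries and 0.681, 1 and 2.06 CPM in the VP16 libraries, without overlap. SPL4, a factor that promotes flowering with age, was higher too (log2 fold change 1.31, SE 0.23, adjusted p = 0.000339), and FLC itself at 0.82 (adjusted p = 0.023). TEM1, a repressor of FT, was lower and stood at 17.45, 22.3 and 26.1 CPM in the EAR libraries and 43, 43.8 and 72.7 CPM in the VP16 libraries (log2 fold change -1.14, SE 0.18, adjusted p = 0.000157). SVP and SPL9 were lower at -0.25 (adjusted p = 0.0485) and -0.39 (adjusted p = 0.0487). Both lay near the threshold, and the number lower was 1 in most fits without 1 library, whereas TEM1 had an adjusted p of at most 0.000863 in every such fit. FT, which the clock and FKF1 act on, had at most 12 reads in any of the 12 libraries and was not tested. Among light and shade regulators PIL1, a shade marker, and HB-2, a homeobox factor of elongation, were higher at 1.3 (adjusted p = 0.00724) and 0.92 (adjusted p = 0.0302), and PIF4 was lower at -0.21 (adjusted p = 0.0134).

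Among called genes of at least 5 CPM without overlap of the fusions, most of the 12 largest rises were outside these lists. Lack of overlap was a rule of choice for these genes. List members outside that rule, such as YUC9 and XTH25, rose by more than most of them. AT1G50040 (chr1:18542061-18544034, plus strand) and AT3G19680 both encode proteins with the domain DUF1005. AT1G50040 stood at 8.19, 15 and 21.3 CPM in the EAR libraries (lowest, median and highest) and 1.6, 2.25 and 3.74 CPM in the VP16 libraries, without overlap (log2 fold change 2.54, SE 0.34, adjusted p = 1.63e-05). AT3G19680 stood at 34.4, 53.7 and 81.9 CPM in the EAR libraries and 14.2, 15.9 and 32.1 CPM in the VP16 libraries (log2 fold change 1.60, SE 0.21, adjusted p = 1.26e-05). In both the VP16 pools differed from Col-0, with log2 fold changes of -2.10 (adjusted p = 0.038) and -1.39 (adjusted p = 0.0274), and the EAR pools had 0.43 (adjusted p = 0.507) and 0.22 (adjusted p = 0.64). Both VP16 calls against Col-0 were lost without Col-0 B, VP16 pool 2 A, VP16 pool 2 B, VP16 pool 5 A or VP16 pool 5 B, and that of AT1G50040 also without Col-0 C, EAR pool 13 A, EAR pool 15 B or EAR pool 15 C, with adjusted p up to 0.555. ELIP2, an early light-induced protein that binds pigments under stress, stood at 7.09, 13 and 19.6 CPM in the EAR libraries and 2.95, 3.71 and 5.49 CPM in the VP16 libraries (log2 fold change 1.64, SE 0.23, adjusted p = 3.15e-05). CML41, a calmodulin-like protein, was higher without overlap (log2 fold change 1.70, SE 0.29, adjusted p = 0.000317), as were the arabinogalactan protein gene AGP5 (log2 fold change 1.93, SE 0.37, adjusted p = 0.000954) and PARG2, which removes poly(ADP-ribose) chains (log2 fold change 1.67, SE 0.33, adjusted p = 0.00106). AT4G27450, annotated as an aluminum induced protein, stood at 58.4, 62.8 and 74 CPM in the EAR libraries and 8.7, 19.9 and 35.5 CPM in the VP16 libraries (log2 fold change 1.51, SE 0.40, adjusted p = 0.00909). AT3G57460, AT5G42830 of the HXXXD acyltransferases, ORP1A of the oxysterol-binding proteins and AT3G49160 of the pyruvate kinases were higher at 1.73 (adjusted p = 0.00093), 1.58 (adjusted p = 0.00184), 1.46 (adjusted p = 0.00214) and 1.45 (adjusted p = 8.11e-06). With the pool as the unit the adjusted p was 0.0626 for CML41, 0.0766 for AGP5, 0.0562 for AT3G57460, 0.0851 for AT5G42830 and 0.0967 for ORP1A. Without VP16 pool 5 the calls of AGP5, PARG2, AT4G27450 and AT5G42830 were lost, and without EAR pool 15 that of ORP1A, whose log2 fold change was then 0.87. Among the falls outside the lists AT2G21130, a cyclophilin, had the smallest error and stood at 1.97, 3.02 and 4.03 CPM in the EAR libraries and 11.3, 13.2 and 15.8 CPM in the VP16 libraries (log2 fold change -2.17, SE 0.16, adjusted p = 4.81e-09). AT4G33467 and AT2G18210, annotated as uncharacterized, and AT1G11210, annotated with the domain DUF761, were lower at -2.46 (adjusted p = 4.06e-06), -2.10 (adjusted p = 0.000103) and -2.05 (adjusted p = 7.72e-07).

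EXL1 and EXO, related genes of which EXL1 responds to low carbon, were higher at 1.89 (adjusted p = 0.00123) and 0.996 (adjusted p = 0.00117). They belong to a list of 18 dark-induced genes in which 4 were higher and 1 lower, with a median of 0.60, and 2 were higher without EAR pool 15, VP16 pool 2 or VP16 pool 5. The share of that list called was 27.8%, beside 20.9% of all genes tested. EXL1 stood at 2.23, 3.88 and 7.54 CPM in the EAR libraries and 0.987, 1.09 and 1.84 CPM in the VP16 libraries, without overlap. TPS10, of the trehalose phosphate synthase family, was higher at 1.03 (adjusted p = 0.029) and BCAT2, which degrades branched-chain amino acids, at 0.83 (adjusted p = 0.0134). The member called lower, KMD4, an F-box protein, stood at 62.7, 91.7 and 106 CPM in the EAR libraries and 124, 149 and 175 CPM in the VP16 libraries (log2 fold change -0.81, SE 0.12, adjusted p = 5.29e-05). In flavonoid synthesis 2 of 18 genes were higher and 1 lower, and the share called, 16.7%, was below that of all genes tested (20.9%). DFR and CHS, enzymes of anthocyanin and general flavonoid synthesis, were higher at 0.62 (adjusted p = 0.0196) and 0.56 (adjusted p = 0.0205), and MYBL2, a repressor of the pathway, was lower at -0.70 (adjusted p = 0.00462).

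The co-repressor that EAR motifs bind was itself called. TPL stood at 112, 118 and 119 CPM in the EAR libraries and 72.1, 92.1 and 101 CPM in the VP16 libraries, without overlap (log2 fold change 0.37, SE 0.07, adjusted p = 0.000671). Its relative TPR2, the mediator subunit MED25 and the histone deacetylase HDA19 were higher by less, at 0.33 (adjusted p = 0.00814), 0.27 (adjusted p = 0.038) and 0.15 (adjusted p = 0.0322). They were the 4 of 10 co-repressor and mediator genes called, 40% beside 20.9% of all genes tested, and the list's median was 0.097. Only 1 was called higher with the pool as the unit or without the whole VP16 pool 2. The number was 2 without the whole of EAR pool 13, EAR pool 15 or VP16 pool 5. It was 2 as well without the single libraries EAR pool 13 B or C, EAR pool 15 B or C, VP16 pool 2 A, or VP16 pool 5 A or B.

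Set beside Col-0, which both fusions share as a reference, the EAR pools differed in 2306 genes (11.8%), 1085 higher (5.55%) and 1221 lower (6.24%), and the VP16 pools in 11 (0.0562%), 4 higher (0.0204%) and 7 lower (0.0358%). With libraries scaled by size alone the EAR split turned to 1373 higher and 822 lower. The count for the EAR pools was 1028 without Col-0 B, 1413 without Col-0 C and 2550 without VP16 pool 2 C. For the VP16 pools it was 83 without Col-0 A and 25 without VP16 pool 2 C, and 1 to 3 without any of Col-0 B, Col-0 C, VP16 pool 2 A, VP16 pool 2 B, VP16 pool 5 A or VP16 pool 5 B. It was 7 without EAR pool 15 B. FKF1 stood at 22.3 ± 3.12 CPM in Col-0 (SD, n = 3), with a log2 fold change of -4.40 in the EAR pools (adjusted p = 1.15e-08) and -0.70 in the VP16 pools (adjusted p = 0.377). LHY stood at 2.77 ± 0.608 CPM in Col-0, with 2.29 in the EAR pools (adjusted p = 2.02e-06) and 0.50 in the VP16 pools (adjusted p = 0.455). For PWD the values were -1.12 in the EAR pools (adjusted p = 1.81e-06) and -0.063 in the VP16 pools (adjusted p = 0.857), and for WAK1 1.63 in the EAR pools (adjusted p = 0.00348) and 0.077 in the VP16 pools (adjusted p = 0.942). The rapid factor ZAT6 had -0.82 in the EAR pools (adjusted p = 0.239) and 1.66 in the VP16 pools (adjusted p = 0.149). YUC9 had 0.96 in the EAR pools (adjusted p = 0.296) and -1.40 in the VP16 pools (adjusted p = 0.426). For the evening factors as a list the median was -1.39 in the EAR pools and -0.43 in the VP16 pools, and for the receptor kinases 1.57 and 0.45.

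**Figure D5:**
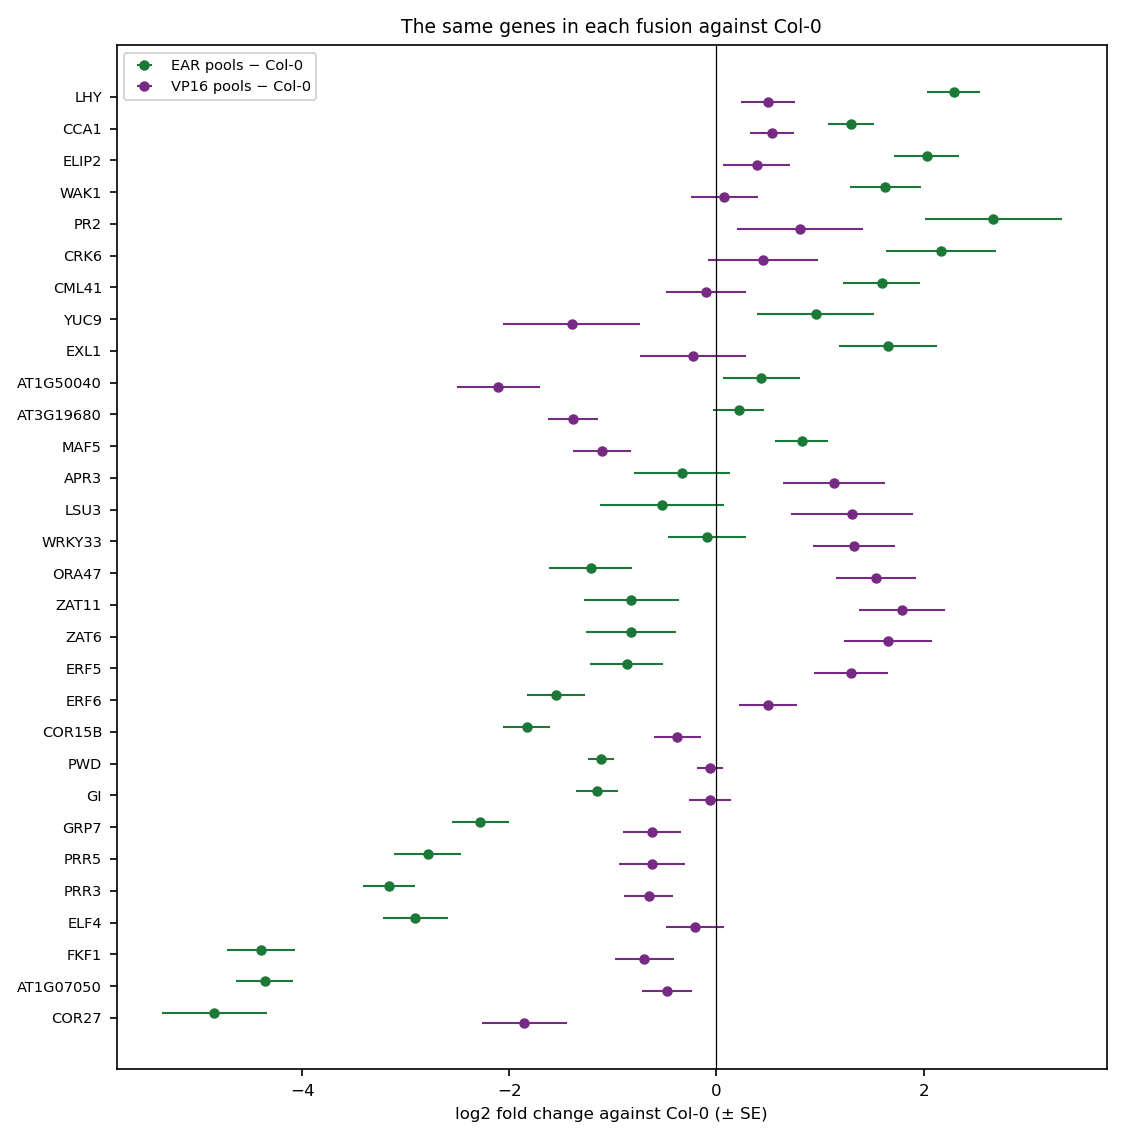
Points give the log2 fold change against Col-0 (horizontal axis) of 30 genes in the EAR pools (green) and the VP16 pools (purple), with bars for the SE. For FKF1 the values were -4.40 and -0.70, for ERF5 -0.86 and 1.3, and for AT1G50040 0.43 and -2.10.

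Among the genes named above, FKF1, LUX, BOA, LNK2, PHS2, BAM3, COR15B, CBF3, ORA47, MYC2, WRKY33, WRKY40, BCAT4, APR3, APR1, APR2, APS3, APS4, AT1G04770, NPR1, AFP1, ABF3, AT2G30766, ILR3, FER4, UPM1, IAA3, IAA13, SPL4, FLC, SPL9, AT3G19680, AT4G27450, ORP1A, AT3G49160, AT4G33467, BCAT2, KMD4, CHS and TPL overlap another annotated gene. The labels do not say whether counting used strand, so reads of such genes and their neighbours could not be told apart.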

How the data were processed

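RNA from shoots was sequenced in 30 libraries of 10 groups, 3 each, and 12 of them entered this comparison. The authors deposited raw read counts per gene, 1 table per library. HTSeq, TAIR10 and TopHat2 2.0.5 are listed, with no role or order, per the submitters' processing notes. For HTSeq the version, counting mode and strand setting are not given in the sources used here. The tables have 32684 entries, of which 5 name no gene and entered neither library sizes nor tests. They include reads on no feature, which in the 12 libraries came to 0.813% to 1.13% of all reads in a table, and ambiguous reads, which came to 1.33% to 1.48%.

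Groups were taken from the sample labels. The 32679 gene entries were filtered with filterByExpr (minimum count 10) to 19566, scaled by the TMM method and fitted with edgeR 4.0.16 (quasi-likelihood test) in R 4.3.3. All 30 libraries shared 1 estimate of the spread, with a common biological coefficient of variation of 0.13. The threshold was an adjusted p (Benjamini-Hochberg, all genes tested) under 0.05. Levels are CPM (counts scaled to library size with TMM factors), which do not correct for gene length and compare libraries, not genes. limma 3.58.1 tested the 4 pool means, and DESeq2 1.42.0 was an alternative, beside other scaling, filters, fits of fewer libraries, a replicate block and fits without each library or pool. Fits without each Col-0 library and the 4 contrasts of single pools were added after seeing the data. Python 3.11.15 and matplotlib 3.10.9 drew the plots.

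The members and gene lists were chosen with earlier results of these data known, so a pattern in them is not independent evidence. The 12 largest called changes each way were named. They came from genes without overlap of the fusions and with a mean of at least 5 CPM in at least 1 fusion. Lack of overlap was therefore fixed in advance for these genes and is not a result. Also named were up to 4 called genes per list and further list members, some chosen after their values were seen. Of 586 list genes 540 were tested. Gene symbols and promoter sequences came from the RefSeq annotation of TAIR10.1, in which 31912 entries matched by locus, 10616 with a symbol. Its name differs from the TAIR10 of the notes. The promoter sequence of 1 further clock output is not reported here.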

Additional observations from a re-analysis of the deposited data

Results flagged for a closer look

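Over the genes with the largest changes, 50 groups of 6 libraries were examined for a library far from the rest, and 7 were found. Chance alone flags about 1 in 20 groups where groups are independent and each is drawn from 1 normal population. The groups here share the same 12 libraries, mix 2 pools each and come from genes picked for their change. That rate is therefore no measure for these flags. VP16 pool 5 C was the highest VP16 library for FKF1 at 23.9 CPM (next 13.3), PRR5 at 90 CPM (next 65.8), AT3G19680 at 32.1 CPM (next 20.7) and AT1G11210 at 8.51 CPM (next 5.3). VP16 pool 2 A was the highest for PARG2 at 13.3 CPM (next 7) and AT3G57460 at 4.75 CPM (next 2.48). In the EAR pools FKF1 reached 3.38 CPM in EAR pool 15 C (next 1.49).

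Genes that differed between pools of the same fusion by edgeR's quasi-likelihood test were flagged as well. In EAR pool 13 minus EAR pool 15 (means ± SD, n = 3 libraries), AT5G24240, a phosphatidylinositol 4-kinase gamma-like protein, stood lower by a log2 difference of -3.55 (adjusted p = 0.0422), from 0.282 ± 0.0366 and 3.38 ± 2.54 CPM. AT3G05165, a transporter, had -1.02 (adjusted p = 0.00857), from 39.2 ± 3.3 and 79.7 ± 6.65 CPM. UPM1 of siroheme synthesis had -0.846 (adjusted p = 0.00129) and the light-regulated factor LZF1 -0.558 (adjusted p = 0.0303). Higher in EAR pool 13 were AT3G15570 of the NPH3 family at 0.552 (adjusted p = 0.0303), UGP3 of sulfolipid synthesis at 0.58 (adjusted p = 0.0422), the carotenoid dioxygenase NCED4 at 0.735 (adjusted p = 0.00857) and GA3OX1, which makes active gibberellin, at 0.96 (adjusted p = 0.00857). In VP16 pool 2 minus VP16 pool 5, AT3G01345, an uncharacterized protein, had 7.34 (adjusted p = 1.34e-10), from 77.4 ± 42.5 and 0.497 ± 0.221 CPM.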

How the results depend on the processing

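The 4095 genes called between the fusions became 472 with the pool as the unit (limma), 1833 without EAR pool 15 and 1407 without VP16 pool 5, and 2917 (without EAR pool 13 C) to 3747 (without VP16 pool 2 C) without 1 library. DESeq2 gave 4321, of which 3994 were among the 4095. In every fit without 1 library 2228 of the genes were called, and 789 in every fit without 1 pool. Between the EAR pools 8 genes became 339 with the 12 libraries alone and 53 with DESeq2, and 1 (without EAR pool 13 B) to 11 (without VP16 pool 2 C) without 1 library. Between the VP16 pools 1 gene became 4 with the 12 libraries alone and 4 with DESeq2, and 1 to 2 without 1 library. For the VP16 pools against Col-0 11 became 97 with DESeq2, and 1 to 83 without 1 library, and for the EAR pools 2306 became 1028 to 2550. Scaling by library size gave 2409 higher and 1597 lower between the fusions. Whether the replicate letters pair the samples was not settled. Correlations of same-letter deviations ran from -0.26 to 0.266 and no pair of pools had all above 0.1, but different letters were not compared. With the replicate block 4001 genes were called, 2171 higher and 1830 lower. Of 158 named genes 149 were called, 113 of them in every fit without 1 library and 48 under every alternative, and no named direction reversed. The cause of these moves was not tested. Several iron and clock genes lay under 1 CPM, and their values rest on few reads.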

Other observations

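Cell cycle genes, which mark dividing tissue, were lower in 8 of 17 cases in the EAR pools, with a median log2 fold change of -0.25, and all EAR libraries lay below all VP16 libraries in 6. Over all genes tested 9.48% were called lower, and all EAR libraries lay below all VP16 libraries in 5.28%. CYCB1;1, a mitotic cyclin, stood at 4.31, 5.3 and 6.18 CPM in the EAR libraries and 6.38, 7.67 and 8.36 CPM in the VP16 libraries (log2 fold change -0.50, SE 0.10, adjusted p = 0.000983). CYCB2;1 was lower at -0.53 (adjusted p = 0.00497) and KN, a syntaxin of cell plate formation, at -0.41 (adjusted p = 0.00122). Without EAR pool 15 the number lower was 2, and with the pool as the unit limma called 0, with 8 lower at an unadjusted p under 0.05.

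Of 17 tau-class glutathione transferases, which detoxify reactive compounds, 6 were higher and 3 lower, with GSTU9 at 1.48 (adjusted p = 0.0274) and GSTU8 at 1.12 (adjusted p = 0.0107). The number higher was 1 without EAR pool 15 B, 2 without VP16 pool 2 B or VP16 pool 5 A and 3 without VP16 pool 2 C. Without the whole VP16 pool 5 edgeR called 0 higher, with 5 at an unadjusted p under 0.05. With the pool as the unit limma called 0 in either direction, with 7 higher and 4 lower at an unadjusted p under 0.05. Of 10 heat shock genes 2 were higher, the small chaperone HSP17.4 at 1.93 (adjusted p = 0.0159) and GOLS1, a galactinol synthase, at 0.68 (adjusted p = 0.0349). The share called, 20%, was near the 20.9% of all genes tested. The count was 0 with the pool as the unit and without the whole of EAR pool 13, VP16 pool 2 or VP16 pool 5. It was also 0 without VP16 pool 5 C alone. Of 22 light-harvesting and Rubisco genes 3 were higher and 0 lower, among them LHCB4.3 at 0.48 (adjusted p = 0.000217). The share called, 13.6%, was below the 20.9% of all genes tested, and 1 gene was higher in most fits without 1 library. All adjusted p values here are from edgeR's quasi-likelihood test.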
